A study of Mus musculus with 26 samples.

Results

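The regions described here are 599 stretches of the mouse genome that carried an ATAC peak, a mark of open chromatin, in every ATAC library of the series. They overlapped a peak of the histone mark H3K27ac in both control libraries and in neither permissive library. They were found by merging the ATAC peaks of 6 libraries into 361941 regions on chromosomes 1 to 19 and X, of which 24804 held a peak in all 6 libraries. Of these always-open regions, 9403 were acetylated in both control libraries. The control and permissive H3K27ac peaks and the presence of ATAC peaks chose the 599 regions and are therefore given as a description, without a test. The nonpermissive H3K27ac libraries and the RNA libraries played no part in the choice.

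All samples were supporting cells, which surround and hold the sensory hair cells, sorted from cochleae of postnatal day 1 mice that were kept in organ culture with EGF and FGF in the medium. The organs received DAPT, an inhibitor of gamma-secretase that blocks Notch signalling, or its solvent DMSO. At 48 h every sorted cell carried TdT, a red reporter switched on by Lfng-CreER, a recombinase driven by the supporting cell gene Lfng. DAPT-treated cells that also carried Atoh1-GFP, a green reporter of the hair cell factor Atoh1, were called permissive. DAPT-treated cells with TdT alone were called nonpermissive, and DMSO-treated cells with TdT alone were the control. ATAC-seq and H3K27ac CUT&RUN had 2 libraries per group, and RNA had 2 control, 3 nonpermissive and 3 permissive libraries. RNA at 24 h came from another sort, of cells with Lfng-GFP, in 3 DAPT and 3 DMSO libraries. The labels do not say that replicates came from separate animals, so the spread between libraries may be technical.

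H3K27ac is laid down on histone H3 by acetyltransferases such as p300 and marks promoters and enhancers in use. An element can stay open while it loses the mark, which separates access to DNA from activity. In the neonatal cochlea Notch signalling keeps supporting cells from becoming hair cells, and a block of Notch lets some of them switch on Atoh1.

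The libraries differed in ways that bear on these regions. Total expected counts of RNA were 2165338 to 4896374 per library at 48 h and 10666050 to 13158897 at 24 h. The depth behind the peak lists is unknown. ATAC lists held 86988 to 170910 peaks, the fewest in permissive 1. The H3K27ac libraries nonpermissive 1 and permissive 1 held 93854 and 114527 peaks over 79.2 and 87.6 Mb, and the other 4 held 46148 to 72280 peaks over 22.5 to 27.1 Mb. In permissive 2, 74.7% of peaks had a deposited −log10 q under 1.3. With 2 libraries a group, the smallest two-sided exact permutation p is 0.333, so peak values below are descriptions. Atoh1 stood at 635 to 1010 CPM (counts scaled to the size of each library) in permissive, 30.2 to 67.2 in nonpermissive and 2.28 to 3.55 in control RNA, in the order of the sort labels.

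Of the 599 regions, 147 (24.5%) lay within 1 kb of a gene start, or of either gene end where the strand was unknown. The following upstream sequences come from RefSeq on GRCm38.p6, the assembly of mm10. They are examples from regions that lost the mark at genes with large RNA falls. Each runs 5′ to 3′ along its gene and ends at the base before the start. Capitals mark TGGGAA or its reverse complement TTCCCA, the core letters bound by RBPJ, the DNA-binding partner of Notch. Hes5, a repressor induced by Notch, has the stretch chr4:154960673-154960922 on the plus strand, with 2 matches. Gucy1a1, a subunit of soluble guanylate cyclase, has chr3:82145074-82145323 on the minus strand, with 3 matches; the window of its other listed start in the same region has 0. Frzb, a secreted Wnt antagonist, has chr2:80447397-80447646 on the minus strand, and the protease gene Prss23 has chr7:89518205-89518454 on the minus strand, with 1 match each. Of the 6 Prss23 start windows inside its region, 4 have 0 matches, and the one farthest upstream is shown. Arhgef6, an exchange factor for Rac and Cdc42, has chrX:57326602-57326851 on the minus strand. Igfbp3, which binds insulin-like growth factors, has chr11:7213924-7214173 on the minus strand. Neither holds these letters. The windows at Slc6a14, Ttyh1 and Liph also have 0 matches and are not shown. Their log2 fold changes in permissive against control cells were −5.87, −5.56 and −5.38. The printed sequences thus do not give the share of regions with these letters.
Hes5: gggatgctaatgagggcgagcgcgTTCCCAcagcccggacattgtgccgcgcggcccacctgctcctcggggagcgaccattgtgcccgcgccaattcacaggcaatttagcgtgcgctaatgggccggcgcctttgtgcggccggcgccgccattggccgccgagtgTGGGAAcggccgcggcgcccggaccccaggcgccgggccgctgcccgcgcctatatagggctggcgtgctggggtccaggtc
Gucy1a1: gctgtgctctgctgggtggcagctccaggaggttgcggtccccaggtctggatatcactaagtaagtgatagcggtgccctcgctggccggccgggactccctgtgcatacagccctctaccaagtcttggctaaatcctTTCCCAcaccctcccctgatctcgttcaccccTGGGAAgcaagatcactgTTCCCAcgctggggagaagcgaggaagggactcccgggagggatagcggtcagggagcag
Frzb: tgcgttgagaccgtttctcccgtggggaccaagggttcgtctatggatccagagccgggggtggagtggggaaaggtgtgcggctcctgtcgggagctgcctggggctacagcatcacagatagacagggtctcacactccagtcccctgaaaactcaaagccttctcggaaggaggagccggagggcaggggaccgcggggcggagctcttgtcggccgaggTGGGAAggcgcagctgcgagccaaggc
Prss23: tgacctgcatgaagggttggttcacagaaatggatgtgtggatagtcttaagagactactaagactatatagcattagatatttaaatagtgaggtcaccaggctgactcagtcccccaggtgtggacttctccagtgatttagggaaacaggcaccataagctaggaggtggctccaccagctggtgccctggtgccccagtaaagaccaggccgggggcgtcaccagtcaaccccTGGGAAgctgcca
Arhgef6: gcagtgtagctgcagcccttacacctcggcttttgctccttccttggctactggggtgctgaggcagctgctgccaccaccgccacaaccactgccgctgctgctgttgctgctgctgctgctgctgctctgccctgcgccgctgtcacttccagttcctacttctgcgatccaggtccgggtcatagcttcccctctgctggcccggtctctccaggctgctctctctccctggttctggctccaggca
Igfbp3: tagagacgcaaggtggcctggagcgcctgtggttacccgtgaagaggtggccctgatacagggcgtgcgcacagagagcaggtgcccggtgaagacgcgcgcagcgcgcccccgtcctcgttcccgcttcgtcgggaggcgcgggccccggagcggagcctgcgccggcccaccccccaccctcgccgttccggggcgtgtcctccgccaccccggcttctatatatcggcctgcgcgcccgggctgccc

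Over 300-base promoter windows, 250 bases before to 50 after a start, 143 windows of 122 genes lay wholly inside the regions. TGGGAA, on either strand, was found in 25.2% of them, in 21.4% of 4711 windows covered by always-open regions that stayed acetylated in control and permissive cells, and in 25.4% of 32619 windows of all genes. The AP-1 letters TGANTCA were in 8.39%, 3.5% and 7.85%, and the TEAD letters GGAATG in 13.3%, 10.7% and 14.6% of the same windows. The RUNX letters TGTGGT were in 9.09%, 11.0% and 16.6%. Median GC content was 65.0%, 63.0% and 53.0%, and the median number of CpG dinucleotides per window 20, 24 and 7. A match of letters is a description and not a binding site, and distal regions were not searched.

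Most of the regions that lacked the mark in permissive cells carried it in nonpermissive cells, which had received the same drug. A peak was present in both nonpermissive libraries at 361 of 599 regions (60.3%), in 1 of them at 194 (32.4%) and in neither at 44 (7.35%). The always-open regions acetylated in control and permissive cells had a peak in both nonpermissive libraries at 90.3% of 6763. Those acetylated in neither control nor permissive cells had it at 2.87% of 5265. The regions thus stood between these sets, nearer to the acetylated one. Library nonpermissive 1, the one with broad coverage, held a peak at 538 regions (89.8%) and nonpermissive 2 at 378 (63.1%), so the share depends on which library is read.

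**Figure D1:**
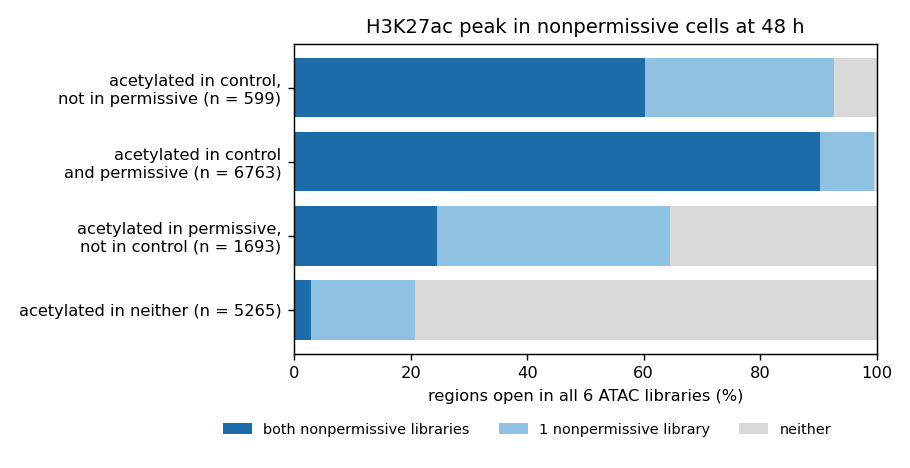
Share of always-open regions (horizontal axis, %) with an H3K27ac peak in both, in 1 or in neither nonpermissive library, for 4 sets defined by control and permissive libraries. The regions without a permissive peak have a nonpermissive peak in both libraries at 60.3%, against 90.3% of regions acetylated in control and permissive cells and 2.87% of regions acetylated in neither.

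Seen from the other side, loss of the mark was more frequent in permissive than in nonpermissive cells. Of the 9403 always-open regions acetylated in both control libraries, 599 (6.37%) had no permissive peak and 130 (1.38%) no nonpermissive peak, and 44 were in both counts. Libraries of like coverage gave the same order. The broad libraries permissive 1 and nonpermissive 1 lacked a peak at 836 (8.89%) and 208 (2.21%) of the 9403 regions. The narrow libraries permissive 2 and nonpermissive 2 lacked one at 2403 (25.6%) and 1355 (14.4%). These libraries were alike in coverage but not in other traits. Peaks with −log10 q under 1.3 made up 74.7% of permissive 2 and 31.2% of nonpermissive 2, and the depth is unknown. A part of library quality in the order was not tested. Just outside the rule lay 1804 regions with a peak in permissive 1 alone and 237 with one in permissive 2 alone. Just inside it lay 86 of the 599 regions (14.4%) with a permissive peak within 500 bp of their edge. The median distance to the nearest permissive peak was 5151 bp.

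The control peaks at the 599 regions were lower than at regions that stayed acetylated. Fold enrichment is the authors' ratio of signal to local background at a peak, and the highest overlapping peak was taken per region. Its median was 3.8 in control 1 and 4.63 in control 2, against 4.95 and 5.66 at regions that stayed acetylated. Over all always-open regions with a peak it was 4.18 and 5.14. Over all peaks of the same libraries, in open regions or not, it was 3.42 and 4.11. Loss was more frequent at lower control peaks in both fates. Where the lower of the 2 control values was under 3.5, 241 of 2074 regions (11.6%) had no permissive and 79 (3.81%) no nonpermissive peak. At 4 to 5 the counts were 147 (4.9%) and 13 (0.433%) of 3003. At 7 or more, 12 of 588 regions (2.04%) had no permissive peak and 0 lacked a nonpermissive one. The share without a permissive peak was the higher of the 2 in each of the 5 height classes. Regions with a peak in both nonpermissive libraries had a median lower control value of 3.8, those with 1 had 3.42 and those with none 3.25.

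**Figure D2:**
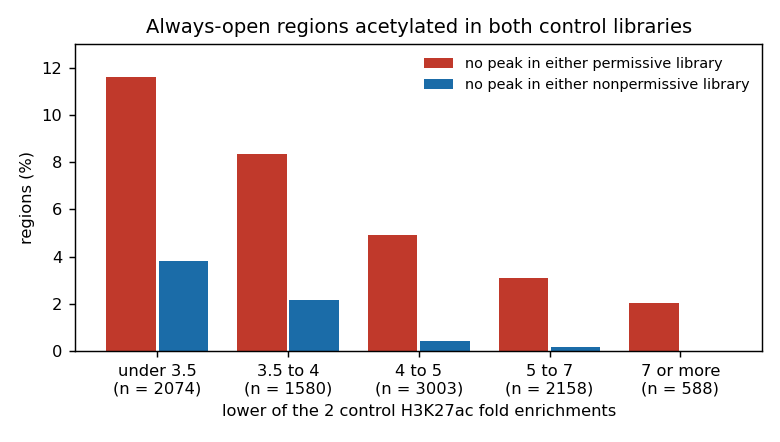
Percent of always-open regions acetylated in both control libraries that lack an H3K27ac peak in both permissive (red) or both nonpermissive (blue) libraries, by class of control peak height. Red bars run from 11.6% to 2.04% and blue bars from 3.81% to 0.0% between the lowest and highest class.

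The regions were mostly away from promoters. Beside the 147 within 1 kb of a start of a protein-coding gene, 98 (16.4%) lay 1 to 10 kb away, 269 (44.9%) 10 to 100 kb away and 85 (14.2%) farther. For genes of unknown strand both gene ends counted as starts. Through such genes 140 of the 599 regions (23.4%) were linked, and 22.7% of all always-open regions. Regions that stayed acetylated lay within 1 kb of a start at 68.9%, and all always-open regions at 47.3%. Inside a gene body lay 323 of the 599 regions (53.9%); exons and introns were not told apart here. Their median width was 766 bp, against 971 bp for regions that stayed acetylated. The share near a start was 26.3% of regions with a peak in both nonpermissive libraries and 15.9% of the 44 with none.

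The ATAC peaks at these regions were present in permissive cells by rule, but they were lower there. The median ATAC fold enrichment, relative to the median of all always-open regions in the same library, was 0.963 and 0.993 in the control libraries and 0.93 and 0.951 in the nonpermissive ones. In the permissive libraries it was 0.789 and 0.683. At regions that stayed acetylated it was 1.16 to 1.35 in all 6 libraries, without such a step. At single regions, both permissive libraries were below both control libraries at 269 of 599 (44.9%), against a background of 19.4% of all always-open regions. Both nonpermissive libraries were below both control libraries at 123 (20.5%; background 14.8%). The count for permissive cells was 187 of the 361 regions with a peak in both nonpermissive libraries (51.8%) and 11 of the 44 with none (25%). ATAC presence was part of the rule and no test was made of the heights.

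**Figure D3:**
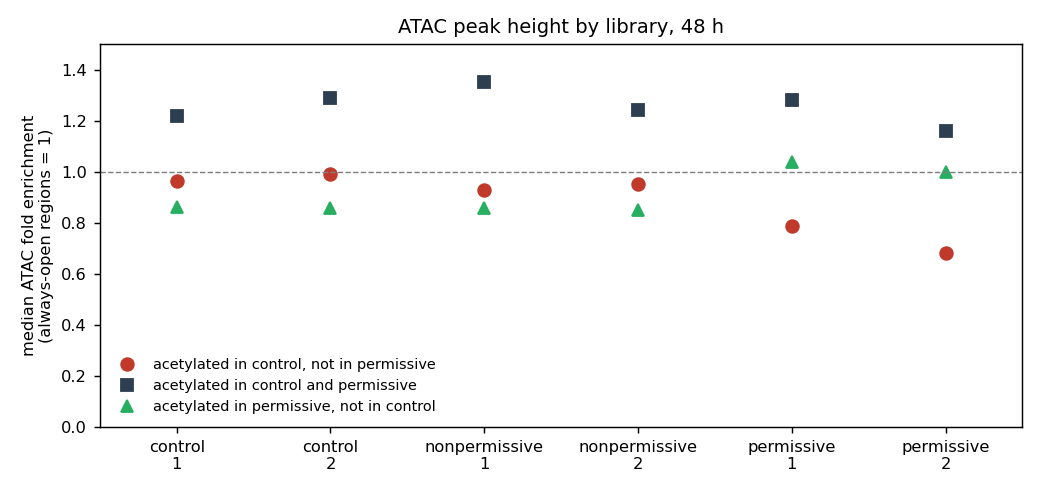
Median ATAC fold enrichment of 3 sets of always-open regions in each of 6 libraries (vertical axis, relative to the median of all always-open regions, dashed line at 1). The regions without permissive H3K27ac sit at 0.93 to 0.993 in control and nonpermissive libraries and at 0.789 and 0.683 in the permissive ones.

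RNA gave a measure that the rule did not use. Each region was linked to the protein-coding gene with the nearest start, which gave 564 genes, of which 457 passed the filter on low counts at 48 h. Of these, 153 fell (33.5%) and 12 rose (2.63%) in permissive against control cells at an adjusted p under 0.05, the Benjamini-Hochberg p of edgeR's quasi-likelihood test over 13411 genes. The background was 7.28% lower and 5.72% higher. The median log2 fold change of the linked genes was −1.32, against 0.06 over all genes tested. Against nonpermissive cells, 137 fell (30.0%, background 6.35%) and 14 rose (3.06%, background 6.78%), with a median of −1.16. All permissive libraries were below all control libraries for 247 of the 457 genes (54.0%, background 20.1%) and below all nonpermissive libraries for 211 (46.2%, background 14.7%). In bulk RNA, fewer cells that express a gene and less RNA per cell cannot be told apart.

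Few of the same genes were called between nonpermissive and control cells. Of the 457 genes, 1 fell, Hes5, and 0 rose (backgrounds 0.127% and 0.0671%), with a median of −0.16. At an unadjusted edgeR p under 0.05, 34 genes were lower, and the share over all genes was not counted for this limit. DESeq2 called 10 lower (2.19%, against 0.574% over all genes) and 1 higher. All nonpermissive libraries were below both control libraries for 81 genes (17.7%, background 10.4%). The whole transcriptome also had few calls in this comparison, 17 lower and 9 higher. Genes nearest to regions that stayed acetylated fell in permissive against control cells at 326 of 5238 (6.22%), near the background. Genes nearest to always-open regions acetylated in permissive and not in control cells rose at 210 of 1289 (16.3%).

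**Figure D4:**
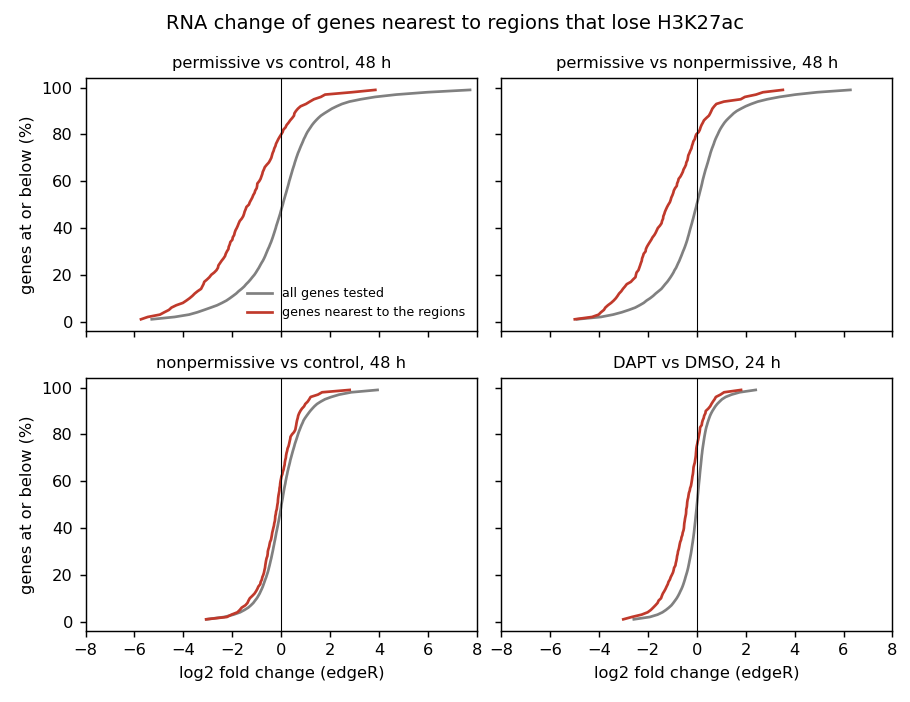
Cumulative share of genes (vertical axis, %) by log2 fold change (horizontal axis) in 4 comparisons, for genes nearest to the 599 regions (red) and all genes tested (grey). The red curve lies left of the grey one in both comparisons of permissive cells, with medians of −1.32 and −1.16, and close to it for nonpermissive against control, with a median of −0.16.

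The share of genes called lower differed with the nonpermissive state and with the distance to the gene. Genes of regions with a peak in both nonpermissive libraries fell in permissive against control cells at 113 of 293 (38.6%). With a peak in 1 library it was 44 of 145 (30.3%), and with none 2 of 32 (6.25%), Hes5 and the glycolytic enzyme gene Eno1; this small set was near the background. Eno1 was named after its value was seen. Regions within 1 kb of a start, or of either gene end where the strand was unknown, had 62 of 128 genes lower (48.4%) and a median of −2.18. At 1 to 10 kb it was 26 of 76 (34.2%), at 10 to 100 kb 59 of 206 (28.6%) and beyond 100 kb 17 of 67 (25.4%). Where the linked gene also had an always-open region that stayed acetylated, 56 of 194 fell (28.9%), and where it had none, 97 of 263 (36.9%). No difference between these subsets was tested.

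Of the 15 Notch pathway genes listed, 4 were nearest to a region, and these are the targets Hes1, Hes5, Hey1 and Hey2, which encode transcriptional repressors. All 4 fell in permissive against control cells, and 10 of the 15 fell in all, with 0 higher. None of the 6 ligands and modifiers of the hair cell lineage (Dll1, Dll3, Jag2, Hes6, Mfng, Dlk2) was linked to a region. Over all protein-coding genes, 564 of 21631 were linked, so few links are due in a list this short.

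Hes5 was the exception in its nonpermissive state. The region chr4:154960568-154961132 covers its start and had control H3K27ac folds of 3.04 and 4.11, no peak in either nonpermissive library and a permissive peak 128 bp from its edge. Hes5 RNA was at 298 and 813 CPM in control, 2.23, 0.0 and 1.92 in nonpermissive and 2.48, 21.1 and 1.62 in permissive libraries. Both DAPT-treated groups thus lay below control without overlap. The log2 fold change was −6.05 ± 0.96 (SE; edgeR adjusted p = 0.00104) for permissive and −8.45 ± 1.1 (0.00647) for nonpermissive cells, the latter 0.0559 without nonpermissive 3.

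The other 3 targets kept a peak in at least 1 nonpermissive library. Hey1 has a region at chr3:8664567-8664984, 1208 bp from an end of the gene, with a peak in both. Hey1 RNA was at 1250 and 375 CPM in control, 156, 68.5 and 78.4 in nonpermissive and 34.9, 6.02 and 15.4 in permissive libraries. The 3 groups did not overlap. It fell by 5.42 ± 0.74 on the log2 scale against control (edgeR adjusted p = 0.00039). Hes1 has a region at chr16:30065065-30065449 that covers an end of the gene, with a peak in nonpermissive 1 alone. Hes1 RNA was at 41.9 and 35.9 CPM in control, 15.1, 13.7 and 8.64 in nonpermissive and 4.13, 2.68 and 1.62 in permissive libraries, again without overlap. It fell by 3.74 ± 0.65 against control (edgeR adjusted p = 0.00186). Against nonpermissive cells Hey1 fell by 2.41 and Hes1 by 2.1, but leaving out single libraries raised the adjusted p of 0.0219 and 0.032 to at most 0.0856 and 0.0983. Hey2, whose region lies 137413 bp from its start, fell by 3.07 ± 0.62 against control (edgeR adjusted p = 0.00481, and 0.0655 without control 1). With the replicate number as a block, Hey2 also passed against nonpermissive cells (adjusted p = 0.0432, and 0.128 without the block), and Hey1 in nonpermissive against control cells (0.0118, and 0.139 without the block).

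Of 32 supporting cell and prosensory genes, 6 were nearest to a region, and 4 of them fell in permissive against control and against nonpermissive cells: Prss23, Gjb6, Lgr6 and Fam107a. In the whole list 19 fell and 0 rose against control. Gjb6, which encodes the gap junction protein connexin 30 of cochlear supporting cells, has a region over its start with a peak in both nonpermissive libraries. Gjb6 RNA was at 298 and 300 CPM in control, 207, 310 and 236 in nonpermissive and 5.16, 21.4 and 26.7 in permissive libraries. Control and nonpermissive values overlapped, and all permissive values lay far below. The log2 fold change was −4.09 ± 0.58 (edgeR adjusted p = 0.000525) against control and −0.25 ± 0.54 (0.978) for nonpermissive against control.

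Fam107a, a gene of supporting cells and glia linked to actin, has a region 18157 bp from its start with a peak in both nonpermissive libraries. Its RNA was at 275 and 400 CPM in control, 316, 680 and 533 in nonpermissive and 15.3, 73.0 and 23.9 in permissive libraries, so that permissive cells stood apart from the rest. Prss23, whose upstream sequence is printed above, was at 713 and 693 CPM in control, 155, 369 and 180 in nonpermissive and 25.2, 52.2 and 57.4 in permissive libraries. Its 3 groups did not overlap, and the step from control to nonpermissive did not pass the test (edgeR adjusted p = 0.366). Prss23 fell by 3.97 ± 0.52 (edgeR adjusted p = 0.000302) and Fam107a by 3.18 ± 0.61 (0.00347) on the log2 scale in permissive against control cells. Lgr6, an R-spondin receptor of the Wnt pathway, has an intragenic region 46561 bp from its start and fell by 4.31 ± 0.74 (edgeR adjusted p = 0.00182). Against nonpermissive cells its fall had an adjusted p of 0.0116, and 0.0569 without nonpermissive 1.

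The remaining 2 genes of this list did not pass the test. Lgr5, the R-spondin receptor that marks cochlear progenitors, has a region 36074 bp away with a peak in both nonpermissive libraries. Lgr5, named here after its values were seen, was at 303 and 203 CPM in control, 378, 227 and 236 in nonpermissive and 275, 178 and 172 in permissive libraries, and the 3 groups overlapped. Sox2, a prosensory transcription factor, was nearest to a region 502269 bp away and was at 172 and 84.7 CPM in control and 43.7 to 52.4 in permissive libraries (log2 fold change −1.44, edgeR adjusted p = 0.0602). Loss of the mark near a gene was thus not always accompanied by a called fall of its RNA.

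**Figure D5:**
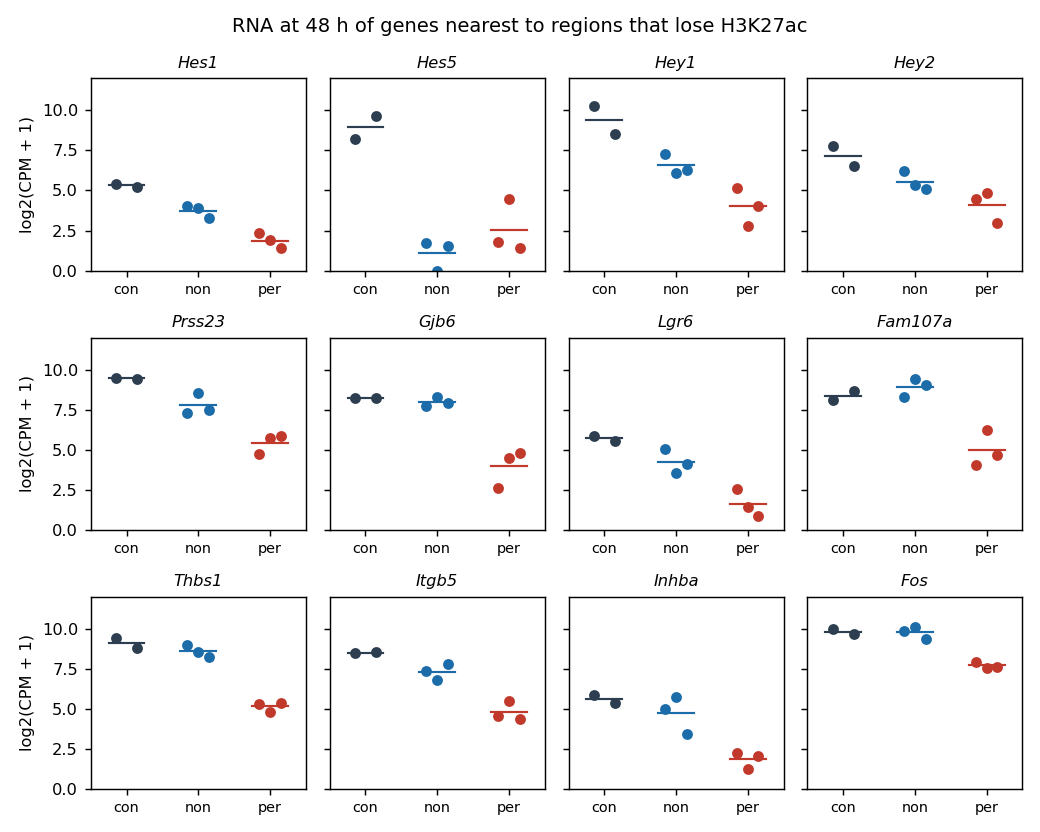
RNA at 48 h as log2(CPM + 1) of 12 genes nearest to the regions, with 2 control (con), 3 nonpermissive (non) and 3 permissive (per) libraries as points and group means as lines. All 12 genes shown were called lower in permissive against control cells, and the permissive points lie below the control points in each panel. They do not stand for all linked genes: of 457 tested, 33.5% were called lower and 2.63% higher. For Hes5 the nonpermissive points, at 0.0 to 2.23 CPM, overlap the permissive ones.

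Matrix and growth factor genes were the next group. Of 30 matrix, basement membrane and integrin genes, 4 were linked (Col4a2, Nid2, Itgb5, Thbs1), and Thbs1 and Itgb5 fell against both groups, while 15 of 29 tested genes of the list fell and 1 rose against control. Nid2, a basement membrane nidogen, had a log2 fold change of −2.25 against nonpermissive cells (edgeR adjusted p = 0.0757), and passed with the replicate number as a block (0.0204). Thbs1, the secreted adhesion protein thrombospondin 1, has a region 330477 bp from an end of the gene at chr2:117780597-117781399, with control folds of 9.13 and 10.8 and nonpermissive folds of 23.1 and 12.4. Thbs1 RNA was at 698 and 450 CPM in control, 507, 373 and 295 in nonpermissive and 39.0, 27.4 and 40.8 in permissive libraries. Permissive cells lay below all others (log2 fold change −4.0 ± 0.45 against control, edgeR adjusted p = 0.000114). Itgb5, an integrin subunit, was at 361 and 367 CPM in control, 160, 110 and 220 in nonpermissive and 22.9, 43.8 and 19.8 in permissive libraries, and fell by 3.66 ± 0.49 (edgeR adjusted p = 0.000324). Col4a2, a basement membrane collagen chain, was at 20.8 and 52.5 CPM in control and 28.8 to 61.1 in permissive libraries, which overlapped.

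Igfbp3, whose start lies in a region with a peak in both nonpermissive libraries, was the most abundant of the 12 largest falls. Igfbp3 RNA was at 2560 and 3120 CPM in control, 925, 1510 and 900 in nonpermissive and 66.9, 141 and 86.9 in permissive libraries. The 3 groups did not overlap, and the fall against control was 4.85 ± 0.49 on the log2 scale (edgeR adjusted p = 8.67e-05). Frzb is nearest to 2 of the regions, chr2:80447238-80447799 over its start and chr2:80446316-80447168, 228 bp from it, and no permissive peak lay within 47641 bp. Frzb RNA was at 108 and 151 CPM in control, 15.1, 19.4 and 9.28 in nonpermissive and 0.413, 6.02 and 1.62 in permissive libraries, a fall of 5.62 ± 0.81 against control (edgeR adjusted p = 0.000532). Against nonpermissive cells its adjusted p of 0.0368 rose to at most 0.109 without single libraries. Arhgef6 had the lowest log2 fold change of the named genes, −7.32 ± 0.76 (edgeR adjusted p = 9.28e-05), with 103 and 146 CPM in control, 36.0, 22.3 and 29.1 in nonpermissive and 0.206, 0.335 and 2.02 in permissive libraries. Gucy1a1 went from 134 and 50.5 CPM in control to 0.0, 4.02 and 0.809 in permissive libraries, with 32.0 to 72.5 in nonpermissive ones (edgeR adjusted p = 0.00132 against control).

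Others among the 12 largest falls were Ttyh1, a chloride channel family gene of glia and supporting cells (−5.56 ± 0.53, edgeR adjusted p = 6.83e-05), and the EGF receptor gene Egfr (−5.45 ± 0.7, 0.000277). The regions of both genes had a peak in both nonpermissive libraries. Of 29 TGF-beta, BMP and activin genes 28 were tested, of which 3 fell and 0 rose against control. In this list 3 genes were linked, and Inhba, the activin A subunit, fell by 4.12 ± 0.73 (edgeR adjusted p = 0.00217). Smad1, a transducer of BMP signals, also fell (edgeR adjusted p = 0.0251), but reached 0.503 without control 2, 0.0646 without permissive 1 and 0.0701 without permissive 2; the inhibitory Smad6 did not pass the test. Of 30 Wnt genes 5 were linked (Wnt7a, Lef1, Tcf7l2, Lgr5, Lgr6) and 3 fell. In the whole list 12 of 28 tested genes fell and 0 rose. The transcription factor gene Tcf7l2 fell with an adjusted p of 0.0134, and 0.158 without control 1. The ligand Wnt7a was at 943 and 745 CPM in control, 381, 243 and 484 in nonpermissive and 138, 240 and 184 in permissive libraries and fell by 2.17 ± 0.44 (edgeR adjusted p = 0.0048). Of 17 FGF genes 2 were linked, Spry2 and Etv5, and neither passed the test, while 4 of the list fell and 1 rose. In the Hippo list 5 of 17 tested genes fell and 0 rose, and in the cell cycle list 2 of 24 fell and 4 rose. The Hippo pathway gene Amotl1 and the cell cycle kinase gene Cdk6 were each nearest to 1 region and fell, with edgeR adjusted p of 0.0245 and 0.023. Without single libraries these reached 0.139 for Amotl1 (control 2; 0.058 and 0.0552 without permissive 1 and permissive 2) and 0.109 for Cdk6 (control 2; 0.0512 without control 1 and 0.069 without permissive 2).

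The regions with the highest control peaks kept them in nonpermissive cells: all 15 regions with the highest lower control fold had a peak in both nonpermissive libraries. Of all always-open regions acetylated in both control libraries, 7970 of 9403 (84.8%) had this too. Where their lower control fold was 7 or more, 0 of 588 had no nonpermissive peak. A nonpermissive peak at such heights was thus not particular to regions without a permissive peak. The first of the 15 lies at chr3:89646673-89648019 in a gene body, 67003 bp from the start of Adar, the RNA-editing enzyme. It had folds of 9.89 and 9.26 in control and 21.6 and 5.22 in nonpermissive libraries. Adar RNA did not follow, with 43.6 and 38.2 CPM in control and 30.5 to 50.8 in permissive libraries. The region at chr12:85472032-85472447 lies 1443 bp from the start of Fos, the AP-1 subunit and immediate early gene, and had folds of 8.37 and 10.3 in control and 12.4 and 9.14 in nonpermissive libraries. Fos RNA was at 993 and 807 CPM in control, 927, 1080 and 669 in nonpermissive and 243, 190 and 197 in permissive libraries, a fall of 2.1 ± 0.4 against control (edgeR adjusted p = 0.00352). Of 21 AP-1 and immediate early genes 4 were linked (Fos, Fosl1, Jun, Egr1). Of these, 3 were tested and Fos and Jun fell, Jun with an edgeR adjusted p of 0.012, and 0.0827 without control 1. In the whole list 6 of 20 tested genes fell and 1 rose.

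Among the 15 strongest regions, P2ry2, a receptor for extracellular ATP and UTP, fell by 3.4 ± 0.65 (edgeR adjusted p = 0.00347), from 55.4 and 34.0 CPM in control to 2.02 to 7.7 in permissive libraries. Liph, a phospholipase gene, has 3 regions within 6994 bp at chr16:21995299-22002292 and fell by 5.38 ± 0.78 (edgeR adjusted p = 0.000544). Bcl10, Rab11fip4, Slc7a1 and Atg101 were also nearest to strong regions, with adjusted p of 0.832, 0.918, 0.495 and 0.733. The nearest gene is a link by distance and not a measured target.

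Some regions lay close together. How often other always-open regions do so was not counted, so the share below cannot be called high or low. Within gaps of 100 kb or less, 81 of the 599 (13.5%) fell into 38 clusters of at least 2 regions, 4 of them with 3 or more. The one with most members spans 89279 bp at chr1:180312770-180402048 around Itpkb, an inositol trisphosphate kinase gene, and holds 4 regions with a peak in both nonpermissive libraries. Itpkb RNA was at 75 and 50.2 CPM in control, 59.8, 31.4 and 42.9 in nonpermissive and 4.75, 5.36 and 4.04 in permissive libraries. Control and nonpermissive values overlapped and permissive values lay below both (log2 fold change −3.72 ± 0.53 against control, edgeR adjusted p = 0.000513). Of 29 tested genes with at least 2 regions, 14 fell (48.3%) and 1 rose in permissive against control cells, beside 139 of 428 genes with 1 region (32.5%) and the background of 7.28%; this difference was not tested.

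A few linked genes went the other way. Snap25, a SNARE protein of synaptic vesicle release, lay 33163 bp from a region with a peak in both nonpermissive libraries. It was at 0.561 and 1.43 CPM in control, 0.0 to 5.14 in nonpermissive and 170, 80.0 and 80.1 in permissive libraries (log2 fold change 6.81 ± 1.16, edgeR adjusted p = 0.00166). Cbln1, a secreted synaptic organizer, rose by 3.56 ± 0.52 (edgeR adjusted p = 0.00061), from 20.6 and 11.7 CPM in control to 142, 205 and 227. Its region lies 242544 bp away. The ephrin gene Efna5 has a region 1445 bp from its start, 206 bp from a permissive peak, and rose by 3.41 ± 0.7 (edgeR adjusted p = 0.00534, and 0.0598 without control 2).

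No region was linked to any of 24 hair bundle, synapse and calcium buffer genes. With 564 of 21631 protein-coding genes linked in all, few links are due in lists of this size. Of 14 hair cell transcription factors 1, Six2, was linked through a region 111378 bp away. Six2 had a log2 fold change of −1.97 against control (edgeR adjusted p = 0.16, and 0.0374 with the replicate number as a block). Of the hair bundle and synapse genes, 19 of 23 tested rose and 0 fell in permissive against control cells. By the same share few links are due among the genes of the acetylation machinery, and no region was linked to one. This list holds 31 acetyltransferases, deacetylases, readers and co-repressors. Of these, 2 fell and 2 rose in permissive against control cells, which is near the shares over all genes (7.28% and 5.72%).

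At 24 h, in cells sorted by Lfng-GFP, many of the same genes were already lower with DAPT. Of 476 tested genes linked to the regions, 196 fell (41.2%, background 14.2%) and 30 rose (6.3%, background 11.5%), and all DAPT libraries were below all DMSO libraries for 239 (50.2%, background 21.7%), with a median log2 fold change of −0.39 against 0.01 over all 15174 genes. Over genes tested at both times, 113 linked genes were lower at 24 h and in permissive against control cells at 48 h, which is 74.8% of the 151 lower at 48 h and 59.8% of the 189 lower at 24 h. Over all genes these shares were 70.6% of 940 and 34.8% of 1910. Hes5 went from 1850, 1550 and 1720 CPM in DMSO to 9.54, 3.7 and 5.71 in DAPT (edgeR adjusted p = 1.35e-06). Igfbp3 went from 3170, 3310 and 3610 to 950, 887 and 1500 CPM (0.000466), and Fam107a from 71.5, 97.2 and 84.0 to 60.7, 50.4 and 81.2 CPM, which overlapped (0.142). Lgr5, without a call at 48 h, rose by 0.74 on the log2 scale at 24 h (edgeR adjusted p = 0.00383). Lfng, the gene behind the sort marker, itself fell by 2.28 at 24 h (edgeR adjusted p = 3.76e-05); time, sort and library kit differ between 24 h and 48 h and cannot be told apart.

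Summed levels of marker lists of other cell types also differed between the sorted groups. The lists share genes: Tectb and Gata3 of the ridge list are also in the supporting cell list. Gata3 is also among the neuron markers, and Dcn is in both the ridge and the mesenchyme list. The sums are thus not a measure of other cell types alone. For 15 markers of the epithelium beside the organ of Corti, including its ridges, the summed level was 12600 to 18400 CPM in control, 16200 to 18900 in nonpermissive and 2780 to 3500 in permissive libraries, and in permissive libraries Fxyd2 alone was at 0 in each. That of 13 mesenchyme markers was 627 to 2830, 1410 to 3420 and 231 to 710 CPM, with none at 0 throughout a group. That of 8 glia markers was 485 to 866, 454 to 718 and 89.1 to 212 CPM, with Gfra3 at 0 in control and nonpermissive libraries. Melanocyte and stria markers (7) summed to 227 to 488, 202 to 359 and 11.7 to 33.1 CPM, with Dct, Tyr, Pmel and Kcne1 at 0 in permissive, Dct and Tyr at 0 in control and Kcne1 at 0 in nonpermissive libraries. Neuron markers (10) summed to 569 to 1050, 383 to 772 and 312 to 483 CPM. Endothelial markers (10) summed to 22.3 to 61.3, 97.1 to 244 and 52.6 to 133 CPM, and blood markers (8) to 39.6 to 49.9, 17.7 to 82.2 and 60 to 167 CPM. Among these, Tek, Prph, Hbb-bs and Hba-a1 were at 0 in each permissive library, Prph and Hba-a1 in each nonpermissive and Nefl in each control library. Over all protein-coding genes, 564 of 21631 were nearest to one of the 599 regions, so few links are due in short lists. None of the markers in these lists was nearest to a region. Their part in the RNA and H3K27ac differences was not tested.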

How the data were processed

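Per the labels, RNA libraries used a poly(A) kit at 24 h and a single-cell kit at 48 h. The deposited RNA tables hold the authors' expected counts, TPM and FPKM per gene; expected counts were rounded and used, TPM and FPKM were not. Each deposited peak list, 1 per sample and without a header line, is in narrowPeak layout and was read by its column order as the authors' fold enrichment (a ratio), −log10 p-value and −log10 q-value per peak. The submitters' processing notes name STAR, RSEM, DESeq2, Bowtie2, MACS2 and UMI-tools and the build mm10, without roles; no source used here gives their settings. The names of the peaks in both nonpermissive H3K27ac lists carry the same replicate number; the lists differ.

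ATAC peaks sharing 1 bp were merged, and an H3K27ac peak overlapping by 1 bp counted. Regions were linked to the nearest start of protein-coding genes. Of 21631 such genes in the RefSeq table for GRCm38.p6, 4357 have no entry in the promoter table, so both gene ends were used, and 140 regions were linked through them. No genome sequence was used here, so sequence was read from promoter windows and not from ATAC summits as first planned. Of 48709 RNA identifiers 48349 matched a symbol, and 554 of 564 linked genes matched an identifier. RNA was fitted with edgeR 4.0.16 in R 4.3.3 (filterByExpr, TMM, quasi-likelihood test, two-sided), all 8 libraries at 48 h together and the 6 at 24 h apart, and the code was tested on simulated data. DESeq2 1.42.0 was an alternative. CPM uses TMM-scaled library sizes.

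Named regions are the 15 with the highest lower control fold and up to 3 per gene list. Named genes are their nearest genes, linked genes with the 12 largest falls or rises (those with an adjusted p under 0.05, whose control and permissive libraries did not overlap and whose mean log2 CPM reached 4), up to 4 linked genes per list and those with most regions. Atoh1, Lfng and Sox2 are checks of the sort, and Lgr5 and Eno1 were named after their values were seen. The members, the 20 gene lists and the tests were chosen with earlier results of these data known. Permissive 1 and nonpermissive 1 RNA libraries deviated together over 7484 genes (r = 0.58). Same-numbered libraries 2 and 3 had r of 0.15 and 0.13. Unmatched libraries had like values, 0.14 for nonpermissive 2 with permissive 3 and 0.19 for nonpermissive 3 with permissive 2. A pairing by number was thus seen for number 1 alone. The main fit had no term for it, and a fit with the replicate number as a block was an alternative. The result of 1 gene that the rule names is not reported here.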

Additional observations from a re-analysis of the deposited data

How the results depend on the processing

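The count of regions (599) moved with the peak lists. It was 190 with −log10 q of at least 5 for H3K27ac, 124 with that limit for ATAC, and 964 with H3K27ac lists of equal length. Leaving out 1 library gave 593 to 2403 regions, most without the H3K27ac library permissive 1; without ATAC permissive 1 it was 1365, and without control 1 or control 2 of H3K27ac 1214 or 1154. The share with a peak in both nonpermissive libraries (60.3%) was 68.5% with the ATAC limit and 64.5% with equal lists. Without single ATAC, control or permissive libraries it was 39.8% to 71.0%. It was lowest without H3K27ac control 2 and highest without H3K27ac permissive 1. Without nonpermissive 2 or nonpermissive 1 of H3K27ac only the other could be read, and it held a peak at 89.8% or 63.1%.

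Of linked genes lower in permissive against control cells (153), 93 to 148 were called without single RNA libraries, fewest without control 1, and 165 with the replicate block; the share over all genes moved too, from 7.28% to 4.57% without control 1 and 8.67% with the block. Links within 10 kb gave 86 of 199 genes (43.2%, median −1.89). Linking all genes with a start within 50 kb gave a lower share, 143 of 604 (23.7%, median −0.81). Against nonpermissive cells (137) the count was 95 to 136 without single libraries (all genes 4.48% to 6.03%). With the replicate block it was 161 (all genes 6.35%, and 8.12% with it). Links within 10 kb gave 78 of 199 (39.2%), and all starts within 50 kb 128 of 604 (21.2%). For nonpermissive against control (1), the replicate block gave 2 (all genes 0.179%), DESeq2 10 (0.574%) and no low-count filter 11 (0.798%). Admitting long noncoding genes gave 2, and leaving out single libraries 0 to 3 (all genes 0.00756% to 0.198%). At 24 h (196) leaving out single libraries gave 153 to 213 (all genes 9.48% to 16.5%, and 14.2% in the main fit). The count was 185 with the replicate block (all genes 12.6%). It was 102 of 206 within 10 kb (49.5%) and 183 of 634 with all starts within 50 kb (28.9%). Same-numbered 24 h libraries did not deviate together.

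Regions chosen without the H3K27ac library permissive 1 (an alternative chosen after seeing the data, as were the next 2 and the noncoding genes) had 307 of 1783 genes lower against control (17.2%), 284 against nonpermissive, 2 for nonpermissive against control and 493 at 24 h. Chosen without ATAC permissive 1 these were 256 of 930 (27.5%), 229 (24.6%), 2 (0.215%) and 361 (37.6%). Without H3K27ac permissive 1 the shares after the first were 15.9%, 0.112% and 26.7%. The RNA fits did not change, so the shares over all genes stayed at 7.28%, 6.35%, 0.127% and 14.2% in the same order. Regions with a peak in both nonpermissive libraries had 0 genes lower in nonpermissive against control by edgeR. Of 129 calls of named genes, 94 held under every alternative fitted, and none changed sign. By comparison, 26 of 43 held for permissive against control and 27 of 38 for permissive against nonpermissive cells. For nonpermissive against control 0 of 1 held, and at 24 h 41 of 47. Of the calls printed above for single genes, the replicate block changed those of Hey1, Hey2, Six2 and Nid2, whose values stand there. The depth behind the peak lists is unknown, which limits every absence of a peak.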
